A study of Mus musculus with 7 samples.

Results

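Nascent RNA of GFI1+ IAHC cells held 60 genes, of 55487 in the raw counts, that reached 10 or more counts in each of the 3 washout libraries and stayed under 10 counts in both Fc-JAG1 libraries. These genes were chosen by those 5 values, so their difference between Fc-JAG1 and the washout is a description of how they were selected and no finding. The compE libraries did not enter the choice. Of the 55487 genes, 4193 had 10 or more counts in each washout library, so the 60 are 1.43% of the genes that were on in the washout, and the other 4133 serve below as the comparison.

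GFI1+ IAHC cells are the CD31+cKIT+GFI1+ cells of the intra-aortic hematopoietic clusters, sorted from the AGM region of E11.5 embryos of the Gfi1:tomato line (strain label CD1/Gf1+). All groups spent a night in compE and were washed, so the washout is a release from Notch inhibition and not an untreated state. After the wash, wells of 300 to 400 cells were held for 4 h with recombinant Fc-JAG1 (replicates 1 and 3), with compE (replicates 1 and 2), or in the washout without either (replicates 1, 2 and 3), each in methylcellulose with EU, a uridine analog that marks new RNA. The titles number the samples by embryo, whereas the methods describe pools of embryos, and the shared number was taken as the pairing. The reporter marks cells by Gfi1 promoter activity, and bulk RNA of sorted cells cannot tell fewer cells of a type from less RNA per cell.

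Notch receptors are cut by γ-secretase after a ligand such as JAG1 binds them, and the released intracellular part joins RBPJ on DNA to switch target genes on. CompE blocks γ-secretase, so it holds this step off, while JAG1 can activate NOTCH1 from a neighboring cell or hold it inactive on the same cell. In the embryonic aorta Notch is needed for arterial identity and for blood stem cells to form from hemogenic endothelium. EU capture reads what was transcribed during the last 4 h, so a gene without reads was either not transcribed in that time or not recovered from these few cells.

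Promoter sequences are shown for 3 of the genes, because their counts were 0 in both Fc-JAG1 libraries: Trp53i13, which had the highest minimum in the washout, and Pold4 and Amt, which were also at 0 in both compE libraries. Each window runs from 250 bases before to 50 bases after the RefSeq start on GRCm38.p6, 5′ to 3′ on the strand of the gene. Trp53i13 lies at chr11:77513224-77513523 on the minus strand, Pold4 at chr19:4231643-4231942 on the plus strand and Amt at chr9:108296655-108296954 on the plus strand. Capitals mark GGGCGG, the core of the SP1 site, on either strand, which was the only 1 of 5 motifs searched that these windows held.
Trp53i13: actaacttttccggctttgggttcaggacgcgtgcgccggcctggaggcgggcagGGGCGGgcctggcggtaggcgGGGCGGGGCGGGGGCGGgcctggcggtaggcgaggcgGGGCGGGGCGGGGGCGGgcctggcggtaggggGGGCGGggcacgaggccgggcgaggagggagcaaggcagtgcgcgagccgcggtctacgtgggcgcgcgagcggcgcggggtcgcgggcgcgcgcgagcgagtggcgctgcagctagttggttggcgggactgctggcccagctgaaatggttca
Pold4: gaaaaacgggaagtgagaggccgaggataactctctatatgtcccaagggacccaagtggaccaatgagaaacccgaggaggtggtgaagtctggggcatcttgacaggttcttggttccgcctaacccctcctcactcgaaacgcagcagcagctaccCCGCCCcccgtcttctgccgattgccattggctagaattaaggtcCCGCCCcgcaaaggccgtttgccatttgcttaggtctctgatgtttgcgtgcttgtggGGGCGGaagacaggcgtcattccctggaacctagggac
Amt: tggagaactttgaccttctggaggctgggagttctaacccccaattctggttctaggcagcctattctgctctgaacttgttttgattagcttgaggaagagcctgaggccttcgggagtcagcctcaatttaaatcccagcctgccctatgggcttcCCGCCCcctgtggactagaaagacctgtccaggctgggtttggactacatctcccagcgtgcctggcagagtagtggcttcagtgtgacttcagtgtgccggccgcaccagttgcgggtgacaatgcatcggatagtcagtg
The window of Trp53i13 held 8 matches, some of which overlap each other, that of Pold4 held 3 and that of Amt held 1. Their GC contents were 77.3%, 56.7% and 54.7%.

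Of the 60 genes, 44 were matched by symbol to a RefSeq promoter, the first listed start of each being used. GGGCGG on either strand was present in 30 of these 44 windows (68.2%), against 66.6% of the 3172 matched windows of the other genes on in the washout and 35.9% of all 27025 windows. TGGGAA, the core of the RBPJ site, was present in 9 (20.5%), those of Cks1brt, Dlg4, Eda, Fam83e, Nectin3, Phldb1, Slc30a6, Slco1a6 and Vmn2r110, against 20.9% of the other genes and 25.5% of all windows. The RUNX core TGTGGT was found in 3 windows (6.82%, against 10.5% of the other genes and 16.9% of all), the GATA site AGATAA in 3 (6.82%, against 4.79% and 11.4%) and TATAAA in 4 (9.09%, against 7.03% and 14.2%). The shares of the 60 genes lay near those of the other genes on in the washout for all 5 motifs, and a match or its absence is only a count of letters in these windows.

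The libraries held between 21652927 and 33974693 counts, and genes with 10 or more counts numbered 11600 and 8006 in Fc-JAG1 1 and 3, 8096 and 12083 in the compE libraries, and 6265, 12351 and 7585 in the 3 washout libraries in order. The number of genes detected thus differed widely among the washout libraries alone. A count of 10 corresponded to 0.306 and 0.379 CPM (counts scaled to the library total) in the Fc-JAG1 libraries and to 0.316 to 0.462 CPM in the washout libraries. Of 10 genes that define the sorted cells, Kit, Runx1, Spi1, Cd34 and Myb had at least 1417 counts in every library, while the other 5 were low in some. Of the genes behind the sort, only Kit stayed high in all libraries. Pecam1 (CD31) had 5932 and 11 counts in the Fc-JAG1 libraries, 6314 and 6028 in the compE libraries, and 18, 3909 and 1186 in the washout libraries. Itga2b had only 184 counts in Fc-JAG1 3 and 8 in washout 1, and Cdh5 had 3 counts at most outside washout 1, where it had 139. Gfi1 had 2504 and 0 counts in the Fc-JAG1 libraries, 0 in both compE libraries and 0, 12 and 2477 counts in the washout libraries, and Ptprc (CD45) had 7149 counts in Fc-JAG1 3 and 3 in washout 3. Counts of 0 were thus found also for the gene whose reporter the cells were sorted on. None of the 60 genes belonged to the marker lists of sorted cells, macrophages, erythrocytes, mesenchyme, neural cells or epithelium. Only 6 markers of sorted cells, 3 of macrophages and 1 of erythrocytes were on in each washout library. Those of mesenchyme, neural cells and epithelium had 0, so they could give no member, and nothing is read from this absence.

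Summed over the 60 genes, the level was 6.64 and 7.02 CPM in Fc-JAG1 1 and 3, 741 and 702 CPM in the compE libraries, and 3248, 675 and 2515 CPM in the 3 washout libraries in order. The median count of a gene was 3 and 2 in the Fc-JAG1 libraries, 5.5 and 82 in the compE libraries, and 167.5, 87.5 and 121.5 in the washout libraries. The compE sums therefore lay at the level of washout 2 and below washout 1 and 3, while the choice itself holds the Fc-JAG1 sums low.

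**Figure D1:**
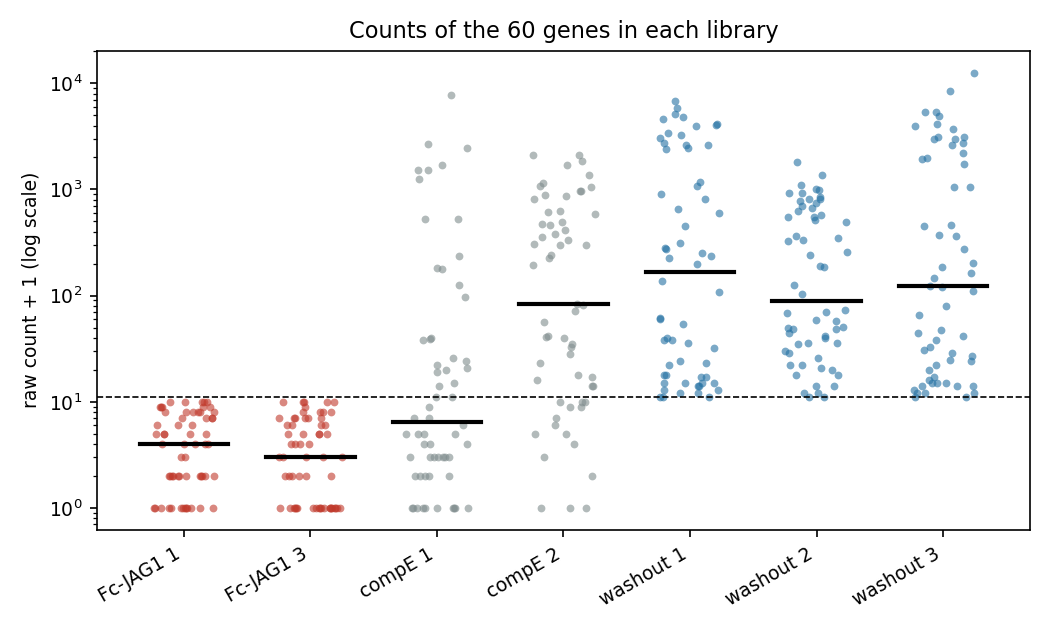
Raw count plus 1 (log axis) of each of the 60 genes in each library, 1 point per gene, with the median of each library as a bar and the count of 10 as a dashed line. No Fc-JAG1 point and every washout point reaches the line, as the choice demands, and 27 genes in compE 1 and 45 in compE 2 reach it.

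Of the 60 genes, 14 had 100 or more counts in each washout library. Trp53i13, a gene named for its induction by p53, had 0 and 0 counts in Fc-JAG1 1 and 3, 1696 and 2122 in the compE libraries, and 2403, 921 and 1742 in the 3 washout libraries in order. Its compE and washout values overlapped, and against the washout mean of 65.5 ± 41.2 CPM (SD, n = 3) it was at least 638-fold lower in Fc-JAG1, with the floor set at 3 counts per library. Leaving out 1 washout library in turn gave bounds of 416-fold to 807-fold, the lowest without washout 1. Cd93, a surface receptor of endothelium and of fetal blood stem and progenitor cells known as AA4.1, had 0 and 0 counts in the Fc-JAG1 libraries, 7693 and 883 in the compE libraries, and 2733, 804 and 3144 in the washout libraries. It was at least 818-fold lower in Fc-JAG1 than the washout mean of 84.1 ± 51.4 CPM, and compE 1 held the highest count of all 7 libraries. Both genes were off in Fc-JAG1 alone.

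Dlg4 and Prorsd1 had the same form with a few reads in Fc-JAG1. Dlg4, which encodes the synaptic scaffold PSD-95, had 6 and 2 counts in the Fc-JAG1 libraries, 526 and 630 in the compE libraries, and 3248, 847 and 3925 in the washout libraries. Prorsd1, named for a domain that it shares with prolyl-tRNA synthetase, had 6 and 0 counts in the Fc-JAG1 libraries, 1509 and 1377 in the compE libraries, and 3994, 743 and 2198 in the washout libraries. In CPM, Dlg4 was lower in both compE libraries than in any washout library, whereas Prorsd1 lay within the washout range. Galnt6, an enzyme that starts mucin-type O-glycosylation, had 1 and 4 counts in the Fc-JAG1 libraries, 1525 and 618 in the compE libraries, and 277, 550 and 4954 in the washout libraries. The washout libraries of Galnt6 spread over 12.2-fold in CPM, and the compE values lay inside that spread.

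In another 5 of the 14 genes, compE 1 was as low as the Fc-JAG1 libraries while compE 2 was not. Slc30a6, a zinc transporter of the secretory pathway, had 1 and 0 counts in the Fc-JAG1 libraries, 2 and 2088 in the compE libraries, and 5157, 675 and 1065 in the washout libraries. Gdpgp1, a GDP-D-glucose phosphorylase, had 1 and 0 counts in the Fc-JAG1 libraries, 1 and 240 in the compE libraries, and 6756, 573 and 3671 in the washout libraries. Vash1, vasohibin-1, an inhibitor of angiogenesis that also removes the terminal tyrosine of tubulin, had 1 and 1 counts in the Fc-JAG1 libraries, 0 and 584 in the compE libraries, and 5845, 495 and 1939 in the washout libraries. The same split between the compE libraries was seen in the folate enzyme homolog Mthfsl and in LTO1. Mthfsl had 0 and 0 counts in the Fc-JAG1 libraries, 0 and 296 in the compE libraries, and 808, 349 and 372 in the washout libraries, at least 197-fold lower in Fc-JAG1 than the washout mean of 20.2 ± 14.8 CPM, or 114-fold without washout 1. LTO1, an adaptor for the iron-sulfur cluster of the ribosome recycling factor ABCE1, had 1 and 1 counts in the Fc-JAG1 libraries, 0 and 959 in the compE libraries, and 252, 1099 and 145 in the washout libraries. For these 5 genes a pair of compE libraries gave opposite answers, so their mean does not describe either.

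Pold4 was off in both inhibitor and ligand libraries. This small subunit of DNA polymerase δ had 0 counts in each of the Fc-JAG1 and compE libraries and 1174, 325 and 464 counts in the washout libraries. Against a washout mean of 26.6 ± 24 CPM it was at least 258-fold lower in Fc-JAG1 and at least 274-fold lower in compE, bounds that became 124-fold and 131-fold without washout 1. It was the only gene of the 14 that was under 10 counts in both compE libraries.

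The last 3 of the 14 were on in both compE libraries. Mtmr14, a phosphoinositide phosphatase, had 7 and 4 counts in the Fc-JAG1 libraries, 524 and 81 in the compE libraries, and 199, 808 and 5395 in the washout libraries. Pet100, which helps to assemble cytochrome c oxidase, had 0 and 3 counts in the Fc-JAG1 libraries, 178 and 34 in the compE libraries, and 914, 188 and 1051 in the washout libraries. Primpol, the primase-polymerase that restarts DNA synthesis past obstacles, had 1 and 0 counts in the Fc-JAG1 libraries, 2454 and 377 in the compE libraries, and 2634, 184 and 450 in the washout libraries. Both compE values lay within the washout range in CPM for Primpol, while compE 2 lay below it for Mtmr14 and for Pet100.

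**Figure D2:**
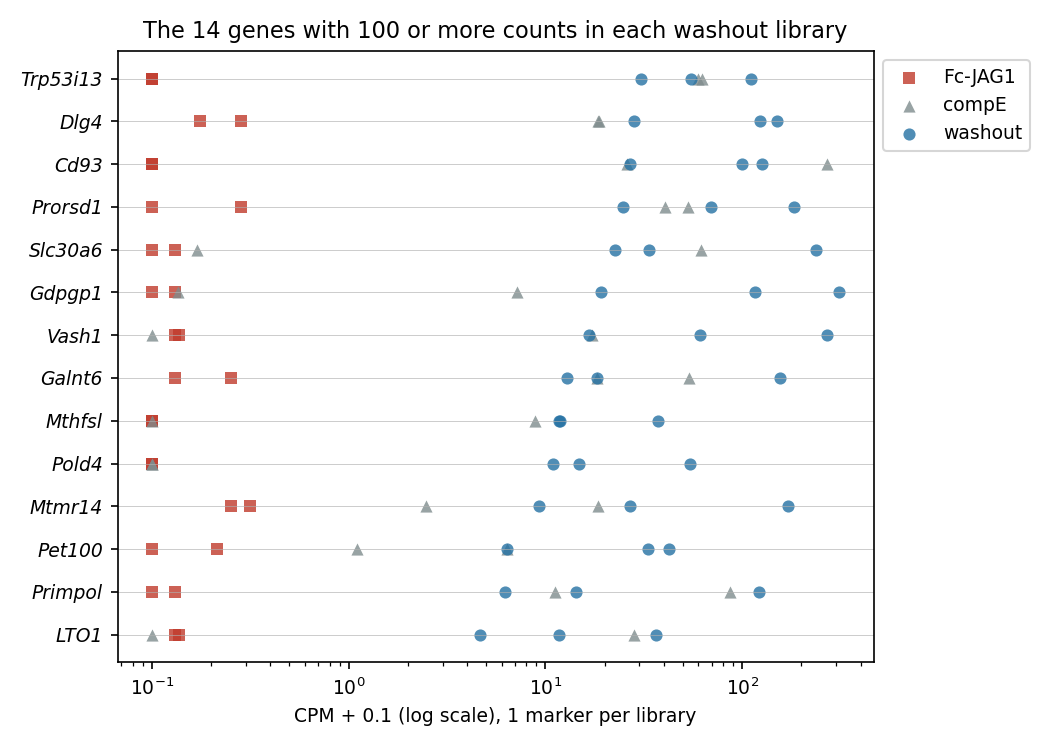
CPM plus 0.1 (log axis) of the 14 genes with 100 or more counts in each washout library, 1 marker per library, with squares for Fc-JAG1, triangles for compE and circles for the washout. Pold4 is at 0 in both compE libraries, whose markers coincide with those of Fc-JAG1, and Trp53i13 and Cd93 are at 0 in the Fc-JAG1 libraries alone.

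Across all 60 genes, 23 (38.3%) had 10 or more counts in both compE libraries, 4 (6.67%) in compE 1 alone, 22 (36.7%) in compE 2 alone and 11 (18.3%) in neither. Of the other 4133 genes on in the washout, 84.2% were on in both compE libraries, 0.919% in compE 1 alone, 14.0% in compE 2 alone and 0.944% in neither. The 60 genes also had lower washout counts than the others, with a median lowest washout count of 20.5 against 808. Within each level of the lowest washout count the share on in both compE libraries was lower among the 60 genes, at 34.5% against 72.3% for counts of 10 to 19, 29.4% against 81.4% for 20 to 99, and 57.1% against 87.0% for 100 or more. The levels are broad, so counts within them are not matched. Both the 60 genes and the others are cut on the same washout libraries. By the choice, each of the others also reached 10 counts in an Fc-JAG1 library, so they were taken as genes recovered there too. These shares are therefore given with no test.

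**Figure D3:**
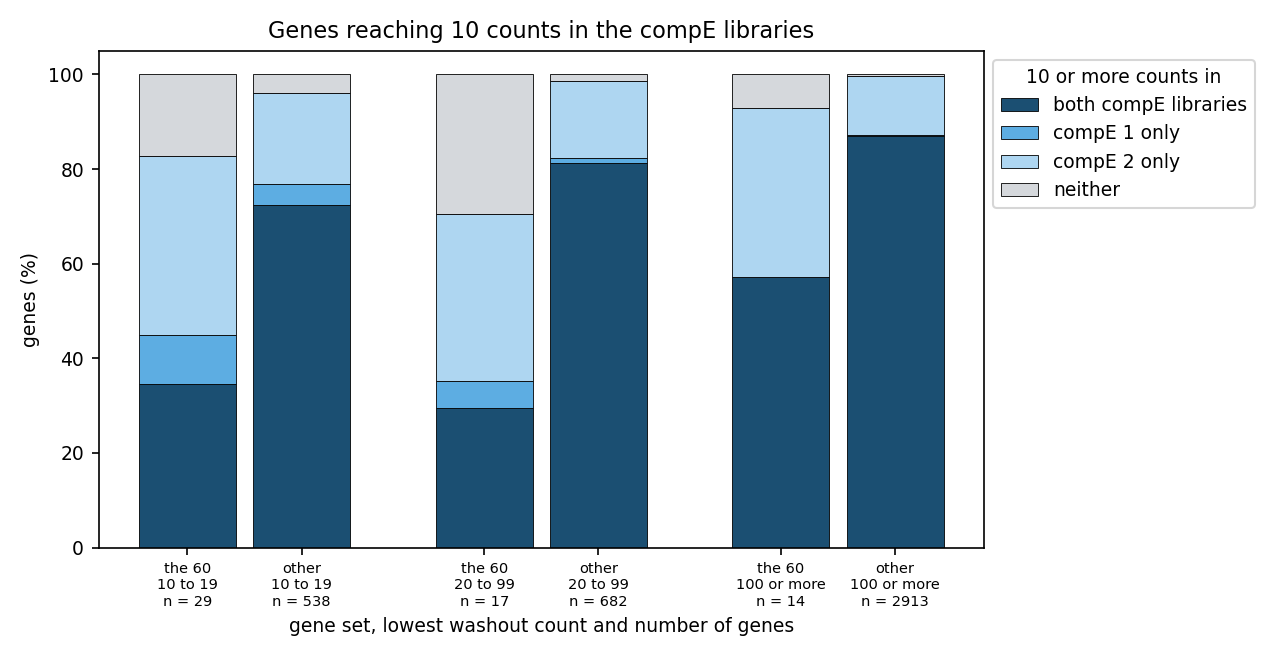
Share of genes (%) with 10 or more counts in both compE libraries, in only 1 of them or in neither, for the 60 genes and the other genes on in the washout, by the lowest of their 3 washout counts. The share on in both is 34.5%, 29.4% and 57.1% for the 60 genes and 72.3%, 81.4% and 87.0% for the others, from the lowest level to the highest.

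Among the 11 genes in neither compE library, Gm28375, Fam19a5, Aldoart1, Amt and Hs3st4 had the highest minimum in the washout after Pold4. Gm28375, a noncoding RNA antisense to Dis3l2, had 0 and 0 counts in the Fc-JAG1 libraries, 0 and 9 in the compE libraries, and 4831, 72 and 3112 in the washout libraries, at least 1050-fold lower in Fc-JAG1 than the washout mean of 108 ± 111 CPM. That bound ran from 489-fold without washout 1 to 1563-fold, depending on the washout library left out. Amt, the aminomethyltransferase of the mitochondrial glycine cleavage system, had 0 counts in all 4 Fc-JAG1 and compE libraries and 235, 35 and 30 counts in the washout libraries, at least 42.0-fold lower in Fc-JAG1 and at least 44.6-fold lower in compE, or 10.3-fold and 10.9-fold without washout 1. Pold4 and Amt were the only ones of the 60 at 0 in both compE libraries. Fam19a5, a secreted protein of neural tissue, had 8 and 5 counts in the Fc-JAG1 libraries, 2 and 5 in the compE libraries, and 59, 69 and 64 in the washout libraries. Its washout values were the tightest of the 60, with a 1.35-fold range in CPM. Aldoart1, an intronless copy of the glycolytic gene Aldoa, had 7 and 5 counts in the Fc-JAG1 libraries, 6 and 8 in the compE libraries, and 60, 29 and 110 in the washout libraries. Hs3st4, a heparan sulfate sulfotransferase, had 5 and 9 counts in the Fc-JAG1 libraries, 3 and 4 in the compE libraries, and 310, 57 and 21 in the washout libraries. These 3 had reads in every library, so the count of 10 parts low from somewhat higher values.

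The remaining 5 of the 11 were Itga3, the laminin receptor integrin α3, Dnah3, a dynein of cilia, Aoc3, an adhesion protein and amine oxidase of vessels, Vmn2r110, a pheromone receptor, and Slco1a6, an organic anion transporter. Their lowest washout counts ran from 10 to 14. Slco1a6 had 6 and 9 counts in the Fc-JAG1 libraries, 4 and 3 in the compE libraries, and 11, 10 and 11 in the washout libraries, so that 1 count separated the Fc-JAG1 and washout libraries.

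At the other end, Trp53i13, Prorsd1, Bmp1, Cd93, Arhgap32 and Dlg4 had the highest minimum over the compE libraries. Bmp1, the protease that matures procollagen and cuts the BMP antagonist chordin, had 0 and 4 counts in the Fc-JAG1 libraries, 1264 and 1837 in the compE libraries, and 649, 257 and 41 in the washout libraries. Both compE libraries were above all 3 washout libraries in CPM. Arhgap32, a GTPase-activating protein, had 9 and 9 counts in the Fc-JAG1 libraries, 2687 and 865 in the compE libraries, and 3057, 50 and 13 in the washout libraries. Its lowest washout count was thus only 4 above both Fc-JAG1 counts. Over the set, compE 1 was above the lowest washout CPM in 22 genes (36.7%, against 58.6% of the other genes on in the washout) and compE 2 in 33 (55%, against 80.0%). The other genes had a median lowest washout count of 808, against 20.5, so these shares are not at a like level. They are also taken against washout values that the choice used. CompE 1 was above the highest washout CPM in 3 genes and compE 2 in 4.

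Grouped by what their products do, a grouping made after their values had been seen, the 60 genes were spread over many functions. Genes tied to DNA replication, repair or p53 were Pold4, Primpol, Trp53i13 and Usp10, a deubiquitinase that acts on p53. Usp10 had 0 and 0 counts in the Fc-JAG1 libraries, 181 and 40 in the compE libraries, and 447, 49 and 276 in the washout libraries, at least 100-fold lower in Fc-JAG1 than the washout mean of 10.3 ± 9.61 CPM, or 50.3-fold without washout 1. The lowest washout counts of these 4 genes ran from 49 to 921.

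Of 11 genes for surface, matrix or vascular proteins, 4 were on in both compE libraries, 4 in 1 of them and 3 in neither. Beside Cd93, Vash1 and Galnt6, they were heparanase (Hpse), the sulfotransferases Chst8 and Hs3st4, the adhesion molecules Nectin3, Itga3, Ninj2 and Aoc3, and Cd55b, a copy of the complement regulator Cd55. Apart from the first 3 their lowest washout count was 24 at most. Nectin3 showed how far a washout library could stand from the others, with 3 and 3 counts in the Fc-JAG1 libraries, 1 and 83 in the compE libraries, and 10, 25 and 5390 in the washout libraries.

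Of 3 genes in growth factor signaling, 2 were in the list of Wnt, TGF-β and BMP genes. Acvr2b, a type II receptor for activins, had 0 and 1 counts in the Fc-JAG1 libraries, 0 and 308 in the compE libraries, and 4146, 19 and 2722 in the washout libraries. Bmp1 is given above, and the TNF family ligand Eda had 3 and 6 counts in the Fc-JAG1 libraries, 20 and 1065 in the compE libraries, and 10, 1016 and 10 in the washout libraries. Eda had high counts in replicate 2 of compE and of the washout and stood at the minimum of 10 in washout 1 and 3.

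The 5 genes of the cytoskeleton and its regulators were Arhgap32, the exchange factors Arhgef4 and Farp2, the microtubule-anchoring protein Phldb1 and Dnah3. Arhgef4 had 4 and 6 counts in the Fc-JAG1 libraries, 19 and 301 in the compE libraries, and 4591, 11 and 8464 in the washout libraries, the widest washout range of all 60 at 730-fold in CPM. Farp2 had 2 and 0 counts in the Fc-JAG1 libraries, 38 and 223 in the compE libraries, and 2648, 519 and 14 in the washout libraries. The lowest washout counts of this group ran from 11 to 37, so none of them had more than 37 counts in all 3 washout libraries.

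Among the 60, 10 genes act in mitochondria, metabolism or transport, of which 5 had 100 or more counts in each washout library. Beside Slc30a6, Gdpgp1, Mthfsl, Mtmr14, Pet100, Amt and Slco1a6, these were Acads, an enzyme of short-chain fatty acid oxidation, Tmem189, which makes the vinyl ether bond of plasmalogens, and Ddc, the decarboxylase of dopamine and serotonin synthesis. Acads had 1 and 0 counts in the Fc-JAG1 libraries, 2 and 1692 in the compE libraries, and 35, 626 and 2981 in the washout libraries. Ddc had 7 and 7 counts in the Fc-JAG1 libraries, 2 and 22 in the compE libraries, and 37, 926 and 2956 in the washout libraries. Tmem189 had 1 and 0 counts in the Fc-JAG1 libraries, 1 and 39 in the compE libraries, and 1082, 773 and 15 in the washout libraries. Each of these 3 enzymes had 1 washout library far below the other two. Of the 10 genes, 2 were on in both compE libraries, 6 in 1 and 2 in neither.

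Transcription factors gave 4 members, all with lowest washout counts of 13 to 17. Creb3l2, a membrane-bound factor of the secretory pathway, had 1 and 6 counts in the Fc-JAG1 libraries, 126 and 973 in the compE libraries, and 14, 698 and 12631 in the washout libraries. The zinc finger gene Zfp839 had 7 and 7 counts in the Fc-JAG1 libraries, 2 and 468 in the compE libraries, and 2479, 17 and 23 in the washout libraries. In both genes 1 washout library held most of the reads. Another zinc finger gene, Zfp212, had 9 and 0 counts in the Fc-JAG1 libraries, 0 and 1143 in the compE libraries, and 14, 13 and 16 in the washout libraries. Its washout values were tight but low, and compE 2 was far above them. The last of the 4, the zinc finger gene Glis1, was on in both compE libraries with 233 and 333 counts.

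Genes known from neurons were also among the 60. Beside Dlg4 and Fam19a5 they included Bsn, a scaffold of the presynaptic active zone, Grin1, the shared subunit of NMDA receptors, and the sorting receptor Sorcs2. Bsn had 0 and 3 counts in the Fc-JAG1 libraries, 96 and 1068 in the compE libraries, and 4079, 991 and 14 in the washout libraries. The 10 markers of neural cells summed to 0.336 and 0.835 CPM in the Fc-JAG1 libraries, 0.352 and 14.1 CPM in the compE libraries, and 1.02, 26.1 and 0.284 CPM in the washout libraries. They were thus above 2 CPM in replicate 2 of compE and of the washout alone, and their part in these genes was not tested.

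Other members leave the source of their reads uncertain. Only uniquely mapped reads were counted, so a read that fits a copy and its source equally was left out. Reads that fit nearly as well may still be misplaced between the copies and the genes they derive from or resemble. The copies are Aldoart1, Cks1brt, Rab11b-ps2, Gm6548 and Gm14539, and misplacement was not tested. Aldoa, for instance, had 27477 and 23652 counts in the Fc-JAG1 libraries and 12132, 25369 and 42280 in the washout libraries. Rab11b-ps2 had 5 and 5 counts in the Fc-JAG1 libraries, 21 and 9 in the compE libraries, and 12, 13 and 11 in the washout libraries, while its parent Rab11b had 600 counts or more in every library. Cks1brt had 6 and 6 counts in the Fc-JAG1 libraries, 37 and 194 in the compE libraries, and 21, 68 and 10 in the washout libraries, and Cks1b was at 0 in washout 1 and at 2676 counts or more in the others. Mthfs, which Mthfsl resembles, had 4 and 6 counts in the Fc-JAG1 libraries and 1 and 104 in the compE libraries. In the washout libraries Mthfs had 1, 457 and 351 counts. It was thus low and high in the same libraries as Mthfsl except for washout 1, and whether they share reads was not tested. The 5 noncoding RNAs were Gm28375, Gm15489, Gm34276, BB557941 and B530045E10Rik, and none of them was on in both compE libraries. The setting for strand was not stated, and 31 of the 60 genes overlap a gene on the other strand in GENCODE M21. On the same strand 9 overlap another gene, among them Pold4 and Usp10, and 35 overlap a gene on either strand. Overlap was taken over whole gene spans, so only reads from a shared stretch may be hard to assign.

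For some of the overlapping pairs, the partner's values were set beside those of the member. Gm15489 had 0 and 0 counts in the Fc-JAG1 libraries, 0 and 414 in the compE libraries, and 14, 332 and 4091 in the washout libraries. Its partner Dctn5 had 525 and 0 counts in the Fc-JAG1 libraries, 0 and 938 in the compE libraries, and 0, 451 and 2892 in the washout libraries. The pair was high and low in the same libraries except for Fc-JAG1 1 and washout 1. Abhd15, opposite Trp53i13, had 1298 and 2 counts in the Fc-JAG1 libraries, 2445 and 322 in the compE libraries, and 5, 60 and 1 in the washout libraries, so it was low in the washout libraries, where Trp53i13 was on, and on with Trp53i13 in the compE libraries. Ccnd1, opposite LTO1, had 2383 and 0 counts in the Fc-JAG1 libraries, 0 and 356 in the compE libraries, and 1, 888 and 7572 in the washout libraries, which matched LTO1 in compE but not in Fc-JAG1 1 or washout 1. Dis3l2, opposite Gm28375, had 428 and 2310 counts in the Fc-JAG1 libraries, where Gm28375 had none, 6 and 2429 in the compE libraries, and 39, 47 and 276 in the washout libraries. Cenpu, opposite Primpol, had 115 and 1 counts in the Fc-JAG1 libraries and 0 and 1485 in the compE libraries. In the washout libraries Cenpu had 0, 712 and 0 counts, while Primpol was on in each. Stk25, opposite Farp2, had 918 and 3582 counts in the Fc-JAG1 libraries and 2 and 1863 in the compE libraries. Its washout counts were 1, 350 and 2. Each partner shown was on in at least 1 Fc-JAG1 library.

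The last 4 members were Fam83e, Ccdc178, Fam221b and Fem1c, the last a substrate receptor of a ubiquitin ligase. Fam83e had 0 and 0 counts in the Fc-JAG1 libraries, 0 and 813 in the compE libraries, and 3402, 241 and 78 in the washout libraries, at least 543-fold lower in Fc-JAG1 than the washout mean of 55.9 ± 87.7 CPM. Without washout 1 the bound was 51.0-fold, so it rests on that library. In all, 9 of the 60 genes were at 0 in both Fc-JAG1 libraries.

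Only 10 of the 60 genes belonged to any of the 37 gene lists used. No Notch pathway gene was among them, of 17 that were on in the washout, and no Notch target gene, of 4. The list of surface and signaling genes of blood stem cells gave 1 of 12, Cd93, and the list of Wnt, TGF-β and BMP genes 2 of 17. The others were Usp10 (1 of 97 ubiquitin ligases and deubiquitinases), Rab11b-ps2 (1 of 93 Rab and vesicle genes), Slc30a6 (1 of 52 solute carriers), Zfp839 and Zfp212 (2 of 68 zinc finger genes), and Arhgap32 and Arhgef4 (2 of 76 genes of the actin cytoskeleton list). Lists with many genes on in the washout and no member included DNA damage response and repair (0 of 22), G1/S cell cycle and replication (0 of 33), ribosomal proteins (0 of 84), splicing (0 of 52), oxidative phosphorylation (0 of 56) and translation factors (0 of 65). Pold4, Primpol and Trp53i13, grouped above with DNA replication, repair or p53, were in none of the lists, and Usp10 only in that of ubiquitin genes. Over all genes on in the washout the share of members was 1.43%. Nothing is read from a count of 0 in lists of these sizes.

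The lower a gene's washout counts, the more often it met the choice. Of the genes with a lowest washout count of 10 to 19, 29 of 567 (5.11%) were members, of those with 20 to 99, 17 of 699 (2.43%), and of those with 100 or more, 14 of 2927 (0.478%). The median of the highest Fc-JAG1 count was 6 in the lowest level, 5 in the middle level and 1 in the highest level. In 25 of the 60 genes the lowest washout count was more than 10 times the highest Fc-JAG1 count, while in 11 it was less than 2 times. Members just inside the minimum in the washout, at 10 to 12 counts, numbered 12, and members with an Fc-JAG1 count of 7 to 9 numbered 20.

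Just outside the choice, 9 genes missed it with 9 counts in 1 washout library, among them Meis3, Morn1 and Eif3s6-ps2. Meis3, a homeodomain cofactor, had 0 counts in all Fc-JAG1 and compE libraries and 9, 632 and 1489 counts in the washout libraries, a wider separation than that of many members. Another 20 genes missed it with a highest Fc-JAG1 count of 10 to 12, among them Taf10, a TFIID subunit, with 4 and 10 counts in the Fc-JAG1 libraries, 16 and 8 in the compE libraries, and 130, 187 and 546 in the washout libraries. In all, 404 genes were under 10 in both Fc-JAG1 libraries and in 1 washout library.

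Washout values were far apart within most of the genes. The highest washout CPM of a gene was a median of 14.5 times its lowest, against 4.60 times in the other genes on in the washout. Those other genes had a median lowest washout count of 808, against 20.5, so the comparison is not at a like level. Over the 10311 genes tested the median ratio was 15.6, at a median lowest washout count of 4. That level is below the 20.5 of the 60 genes, so this comparison is not at a like level either. Whether a wide washout range is particular to the 60 genes was not tested. Among the 60 the ratio ran from 1.35 to 730, passed 100 in 12 genes and was under 5 in 18. By level its median in the 60 was 35.2 for lowest counts of 10 to 19, 12.7 for 20 to 99 and 7.73 for 100 or more. Values by level are not given here for the other genes. The highest washout CPM was in washout 1 for 33 genes, in washout 2 for 12 and in washout 3 for 15.

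The members also differed in gene length by level, a property the choice did not use. Median gene length was 94363 bases for members with a lowest washout count of 10 to 19, 45677 for 20 to 99 and 14997 for 100 or more. In the other genes on in the washout it was 104427, 66567 and 26969 bases, so both sets had shorter genes at higher counts. Genes longer than 100 kb made up 48.3% of members in the lowest level, against 51.8% of the others, and 0% in the highest level (0 of 14), against 15.5%. Of the 60 genes 52 (86.7%) are protein coding, against 94.6% of the others, and they lie on 19 chromosomes.

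**Figure D4:**
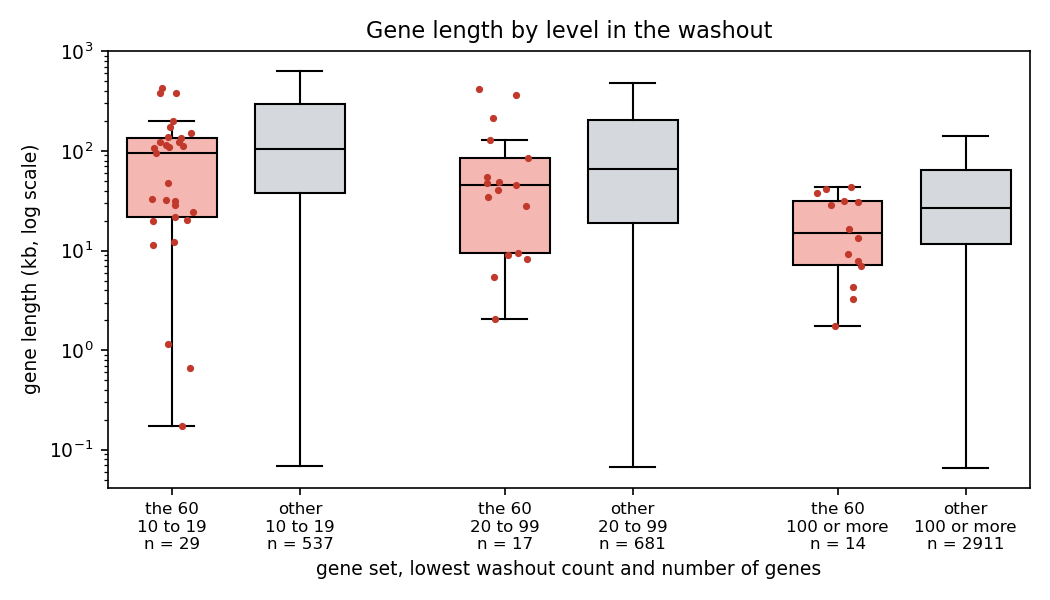
Gene length (kb, log axis) of the 60 genes and of the other genes on in the washout, by lowest washout count, with boxes for quartiles and medians, whiskers to the last value within 1.5 times the box, and each of the 60 genes as a point. Medians fall from 94363 to 45677 to 14997 bases in the 60 genes and from 104427 to 66567 to 26969 bases in the others as counts rise.

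The same choice was counted with other libraries in the on and off places, as a description with no test. With any 3 of the 3 washout and 2 Fc-JAG1 libraries on and the other 2 off there are 10 ways, which gave 21 to 961 genes with a median of 63, and the one that follows the labels gave 60. The highest number, 961, came with washout 1 and 3 off, and the next, 873, with Fc-JAG1 3 and washout 1 off. These are the libraries with few genes detected. With the washout on, putting another pair off gave 60 genes for Fc-JAG1 1 with compE 1, 34 for Fc-JAG1 1 with compE 2, 247 for Fc-JAG1 3 with compE 1, 47 for Fc-JAG1 3 with compE 2, and 50 for both compE libraries. The mirror choice, on in both Fc-JAG1 libraries and off in all 3 washout libraries, gave 174 genes. The number of genes found thus differed widely with the libraries taken. Whether the number of genes detected or the treatment plays a part in it was not tested.

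**Figure D5:**
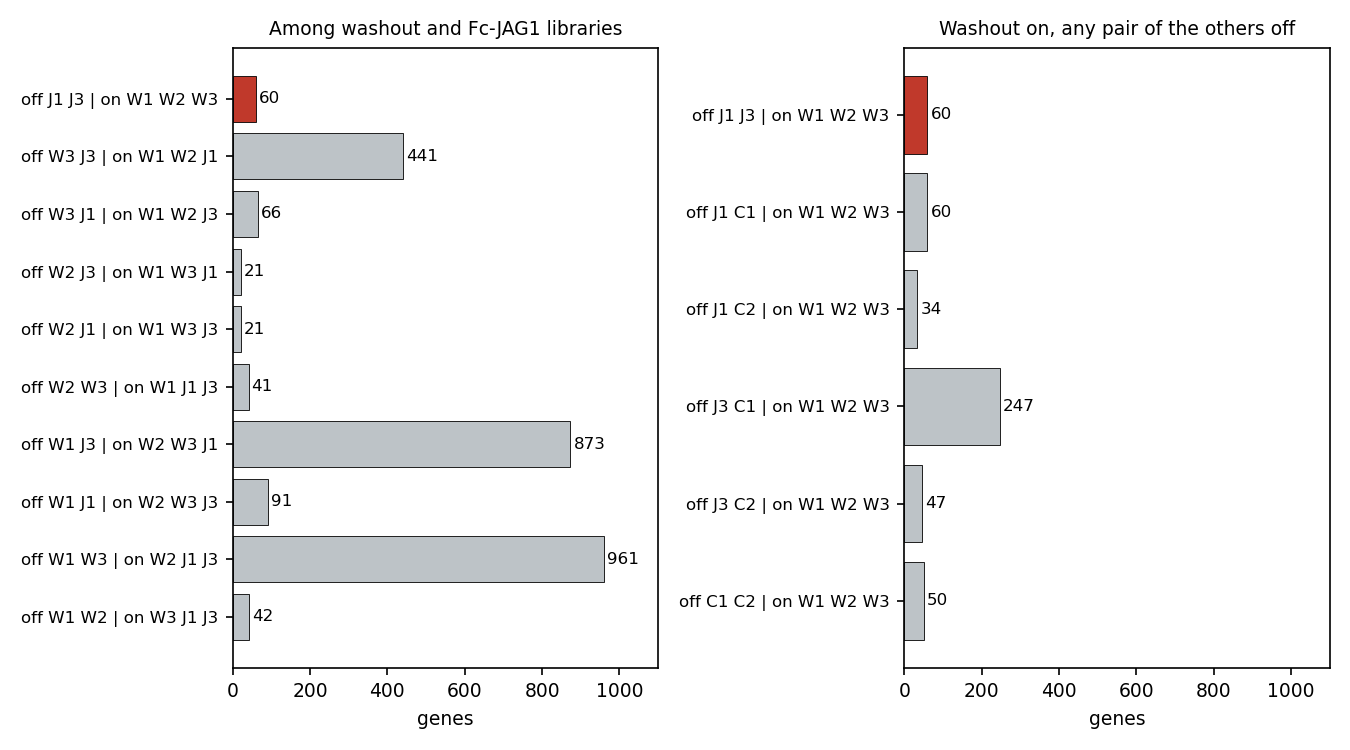
Number of genes with 10 or more counts in the on libraries and under 10 in the off libraries, for the 10 ways among washout (W) and Fc-JAG1 (J) libraries and for each pair of Fc-JAG1 and compE (C) libraries off with the washout on. The red bar, 60 genes, is the choice by label, beside counts of 21 to 961 on the left and 34 to 247 on the right.

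With edgeR's quasi-likelihood test and Benjamini-Hochberg adjustment on 10311 genes, none was called lower at an adjusted p under 0.05 in Fc-JAG1 (0.0% of genes) or in compE (0.0%), and so none of the 60. At an unadjusted p under 0.05, 125 genes were lower in Fc-JAG1, 20 of them members, and 122 in compE, 6 of them members. The smallest adjusted p of a member was 0.828 for Fc-JAG1 and 1 for compE. The Wald test of DESeq2 called 4.74% of genes lower in Fc-JAG1 and 3.67% in compE, and of the 60 genes 46 and 12. As the choice used the Fc-JAG1 and washout values, and compE shares those washout libraries, nothing is read from these counts. The 12 called in compE were Amt, Ccdc178, Ddc, Dnah3, Fam19a5, Gdpgp1, Gm28375, Hs3st4, Itga3, Pold4, Tmem189 and Vash1. The calls over all genes moved as widely when a library was left out. Without compE 1 that count of members was 1, of 77 genes called lower in all. Without Fc-JAG1 1 it was 3 of 83, without washout 1 it was 6 of 185, and without washout 2 it was 22 of 1096, against 12 of 378 with all libraries. In Fc-JAG1 the 46 of 489 became 25 of 1291 without Fc-JAG1 1.

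The median log2 CPM difference of the 60 genes from the washout was −5.34 in Fc-JAG1 and −2.17 in compE, against 0.29 and 0.37 over the 10311 genes tested and −0.34 and −0.35 over the other genes on in the washout. The Fc-JAG1 value follows from the choice, and the compE value is taken against washout libraries in which the choice required these genes to be on. The other genes on in the washout had a median lowest washout count of 808, against 20.5, so the comparison is not at a like level. In compE the median was −1.26 without compE 1 and −2.82 without compE 2.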

How the data were processed

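Raw counts per gene were deposited by the authors for 7 libraries, 1 column each, with no normalization. By the labels and methods, reads were trimmed with cutadapt 4.2, aligned to GRCm38 with STAR 2.7.8, and uniquely mapped reads were assigned to genes with featureCounts (Subread 2.0.1). The strand setting is not given in the sources used here. The deposited filtered counts keep 10311 genes, each with 10 counts or more in 2 or more replicates of a condition. The deposited log2 values, transformed by the authors with DESeq2 1.38.3, were not used. The Fc-JAG1 sample of replicate 2, excluded by the authors, was not analysed here. Libraries carry no molecular identifiers, so p-values, floors and ranges cover these libraries only, and a high count can come from few captured molecules.

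The 60 genes were those with at least 10 raw counts in each washout library and under 10 in both Fc-JAG1 libraries. A limit of 300 genes was not reached. The members and gene lists were chosen with earlier results of these data known. CPM are counts scaled to the total of the library. A floor of 3 counts per library gave the bounds on fold differences. They are bounds against the washout mean, not against each washout library, and describe values that the choice used. Tests used R 4.3.3 and edgeR 4.0.16 (quasi-likelihood, TMM, with sample number and condition in the model) on the filtered genes, with DESeq2 1.42.0 (Wald test) as the alternative, other scalings, no filter, no block and each library left out. Both tests were run on simulated data. A pass was set only for edgeR, for large changes at a small spread. The common dispersion of the 7 libraries was 2.42, far above that spread. What edgeR could find at 2.42 is not reported here, so its 0 calls do not show that genes were unchanged. The sample numbers pair the libraries because the study describes them as paired. Libraries of the same number correlated at −0.0854 to 0.0915 in their deviations from the group mean (5 pairs). Log2 CPM used TMM factors and a prior count of 2.

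Genes named are the 12 with the highest minimum CPM in the washout, up to 3 per list, 6 with the highest minimum in compE, 6 highest in the washout among those off in compE, and genes next to the thresholds. Some that meet this rule are not reported here. All others, their roles and the overlapping partners were picked after values were seen. Gene positions come from GENCODE M21 on GRCm38 and promoters from RefSeq on GRCm38.p6. Figures were drawn with matplotlib 3.10.9.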

Additional observations from a re-analysis of the deposited data

How the results depend on the processing

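The count of genes called between Fc-JAG1 and the washout was 0 in edgeR, and 526 genes had an unadjusted p under 0.05. It was also 0 with other scalings, with no filter and without each library in turn. It was 2108 with the Wald test of DESeq2 and 1 in edgeR with no replicate block. Between compE and the washout the count was 0 in edgeR, with 271 genes at an unadjusted p under 0.05, and 0 with no replicate block, while DESeq2 called 962. With no replicate block DESeq2 called 39 of the 60 genes lower in Fc-JAG1 and 9 in compE, against 46 and 12 with the block, while its calls over all genes were 234 and 175, against 489 and 378. Leaving out each library gave 25 to 50 and 1 to 22 of the 60 genes, and 359 to 1291 and 77 to 1096 over all genes. These fits were added after seeing the data, as were the bounds without each washout library.

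The number of genes found by the choice was 69 at a count minimum of 5, 47 at 20, 33 at 50, and 63 with all libraries scaled to the shallowest. Of the 60 genes, 31, 31, 17 and 46 were among those found. Leaving out 1 library gave 102 to 704 genes, before the limit of 300, the highest without Fc-JAG1 1. A choice on fewer libraries is looser by construction. Genes on in both compE libraries numbered 13 at a minimum of 20 and 10 at 50, against 23. Over every scaling, prior count and left-out library, the median log2 CPM difference was −6.08 to −4.36 for Fc-JAG1, where the choice fixes the sign. For compE it was −2.82 to −1.26, against washout libraries that the choice also used. A count of 10 at these depths is a level of 0.294 to 0.462 CPM, and 29 of the 60 genes had a lowest washout count under 20.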
